A study of Mus musculus with 12 samples.

Results

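The HIF-1α and HIF-2α subunit genes and 8 genes that hypoxia induces in many tissues were followed in mouse retina at postnatal day (P) 18, in retinas kept in room air, retinas of oxygen-induced retinopathy (OIR) given placebo, and OIR retinas given the anti-ASC antibody IC100. The 10 genes were a listed set (Hif1a, Epas1, Egln1, Egln3, Ndufa4l2, Bnip3, Ankrd37, Angptl4, Hilpda and Car9) and were found by symbol among the 36131 genes of the count table. All 10 were detected well enough to be tested. Retinas of 12 C57BL/6J wildtype mice were sequenced, 4 per group, and each mouse is named by its number. RA-PBS mice (animals 1 to 4) stayed in room air, O2-PBS mice (animals 5 to 8) and O2-IC100 mice (animals 9 to 12) entered 75% O2 at P7 with their nursing mothers and were back in room air from P12. By the sample labels PBS, or IC100 at 10 µg/g, was injected intraperitoneally at P12, P14 and P16. Elsewhere the study describes an intravitreal IC100 arm and placebo given intravitreally, and if the O2-PBS retinas here had the latter, route and IC100 cannot be told apart. IC100 is a humanized monoclonal antibody against ASC, the adaptor protein of the inflammasome.

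HIF is a transcription factor made of an oxygen-labile alpha subunit, HIF-1α (Hif1a) or HIF-2α (Epas1), and a stable partner, ARNT. In the presence of oxygen the prolyl hydroxylases of the Egln genes mark the alpha subunit for capture by VHL and for destruction, so the activity of HIF is set largely by its protein and less by its RNA. When oxygen falls, HIF binds short elements near its target genes, among them genes of metabolism, mitochondria, vessels and pH, and Egln3 and Egln1 themselves. In OIR the high oxygen closes central retinal capillaries, and after the return to room air the avascular retina is short of oxygen and new vessels grow into the vitreous.

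Total expected counts were 14907143 to 24438082 per retina. Levels are given as normalized CPM, that is, CPM with library sizes scaled by TMM. To pass the thresholds a gene needed a 1.5-fold change, p under 0.05 and adjusted p under 0.1 in edgeR's quasi-likelihood F test, adjusted over all genes tested by the Benjamini-Hochberg method. O2-IC100 animal 10 stood apart, since lens crystallins took 59% of its counts and its summed rod level was 11100 normalized CPM against 39400 to 47000 in the other 11 retinas. Crystallins took 1.25 to 4.5% in RA-PBS animals 2, 3 and 4 and at most 0.0158% in the other 8 retinas. Calls of the 10 genes are given for all 12 animals and without animal 10, and where only 1 of these fits is given it is named. In whole retina a smaller number of cells of a type and less RNA per cell cannot be told apart.

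Between OIR and room air, 2 of the 10 genes differed past the thresholds. Ndufa4l2, which encodes a mitochondrial protein that lowers complex I activity in hypoxia, was 12.1 times as high in O2-PBS as in RA-PBS retinas by group means, and Egln3, a prolyl hydroxylase that is itself a HIF target, was 3.7 times as high. Both rose past the thresholds in the fit of all 12 animals, in which 0.782% of 16489 genes rose, and again without animal 10, when 4.09% of 16688 genes rose. The other 8 genes did not pass in either fit, and no member fell, as 0.0243% of all genes did with 12 animals. Over the 10 genes the median log2 fold change was 0.35, against -0.01 over all genes tested.

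**Figure D1:**
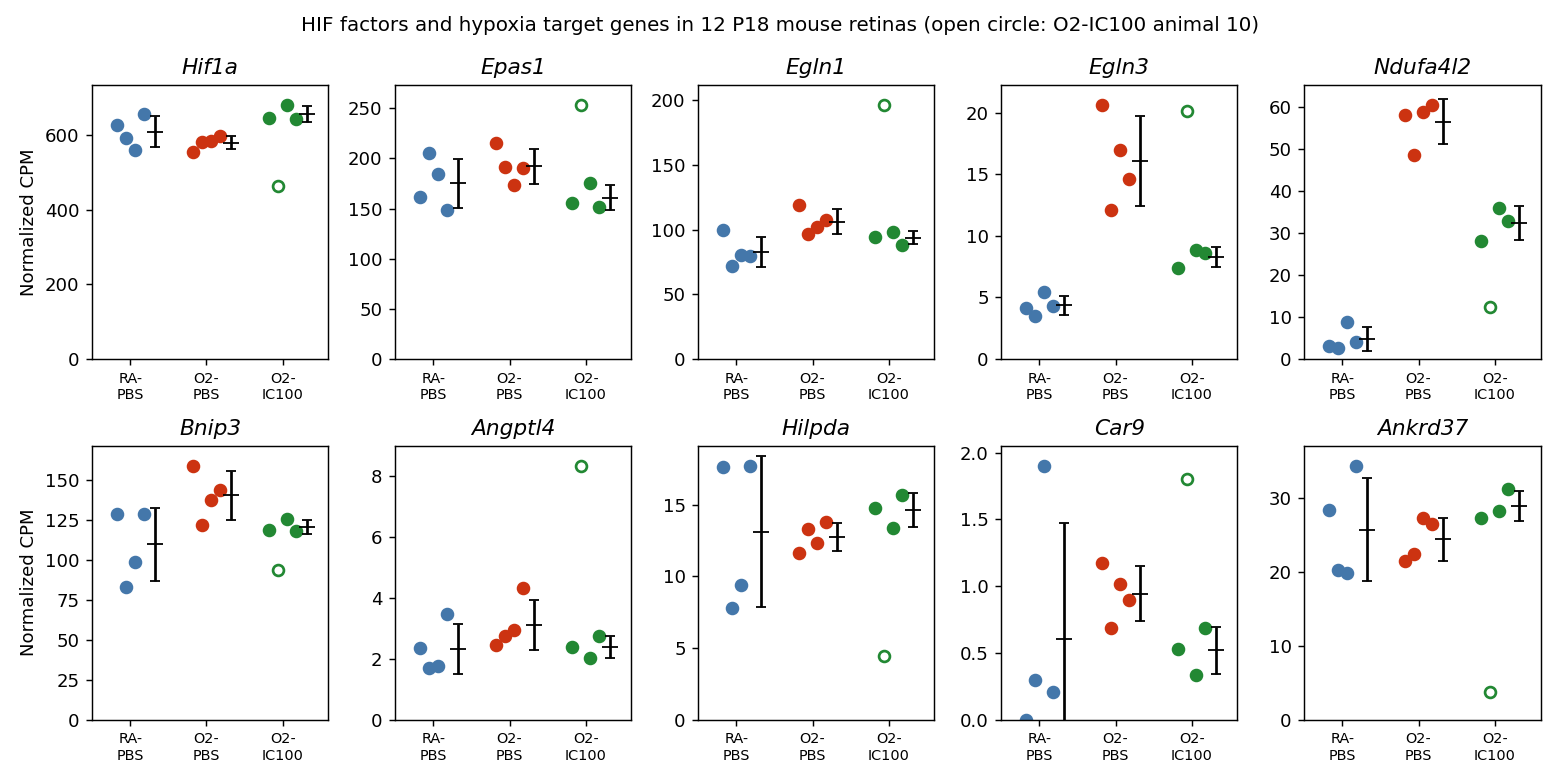
Normalized CPM of the 10 genes (vertical axes, starting at 0) in each retina, by group. Filled circles are single animals, the open circle is O2-IC100 animal 10, and the black bars give the mean ± SD of the group without animal 10. Ndufa4l2 and Egln3 are the genes whose O2-PBS retinas all lie above the RA-PBS retinas.

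The letters that HIF reads at its targets, ACGTG or GCGTG, were looked up in windows of 250 bases before to 50 bases after the RefSeq transcription starts (build GRCm38.p6). There were 8 windows for 7 of the genes (Hilpda had 2 that overlap), and all 8 held at least 1 match on either strand. No window was at hand for Epas1, Ndufa4l2 and Angptl4. Ndufa4l2, the gene with the largest rise, was therefore not searched, and Egln3 is the only risen gene that was. Of all 32851 windows of this length 43.8% held one, 19.6% for ACGTG and 32.4% for GCGTG. Where CACGTG occurs, as in the windows of Hif1a and Bnip3, the same letters give a match on both strands. The 250 bases before the start are shown for Egln3, which rose, for its paralog Egln1, which did not pass, and for Ankrd37, which had 4 matches and did not pass. They run 5′ to 3′ on the strand of the gene, with the matches of either strand in capitals. Their positions are chr12:54203875-54204124 (minus strand), chr8:124949255-124949504 (minus strand) and chr8:45999851-46000100 (minus strand).
Egln3: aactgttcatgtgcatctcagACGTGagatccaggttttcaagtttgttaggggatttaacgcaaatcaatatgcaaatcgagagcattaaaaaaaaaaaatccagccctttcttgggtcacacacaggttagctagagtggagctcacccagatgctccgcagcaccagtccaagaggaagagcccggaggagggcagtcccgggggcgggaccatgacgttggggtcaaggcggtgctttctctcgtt
Egln1: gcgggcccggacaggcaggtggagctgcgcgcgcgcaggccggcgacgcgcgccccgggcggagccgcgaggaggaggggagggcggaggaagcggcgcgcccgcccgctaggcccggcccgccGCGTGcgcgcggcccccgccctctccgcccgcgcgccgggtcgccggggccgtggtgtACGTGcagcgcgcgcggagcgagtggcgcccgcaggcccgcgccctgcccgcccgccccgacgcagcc
Ankrd37: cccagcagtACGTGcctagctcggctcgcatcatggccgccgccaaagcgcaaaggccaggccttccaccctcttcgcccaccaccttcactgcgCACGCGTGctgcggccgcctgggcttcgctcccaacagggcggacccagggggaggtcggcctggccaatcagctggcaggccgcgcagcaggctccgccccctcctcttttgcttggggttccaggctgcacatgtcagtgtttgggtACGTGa
Egln3 had a single match, whose first base lay at -229 from the start. Egln1 had 2, at -126 and -68. Ankrd37 had matches at -241, -155, -152 and -6. Bnip3, which did not pass, had the most, with 5. A match in this window is a description of its letters and not evidence that HIF was bound there in these retinas.

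**Figure D2:**
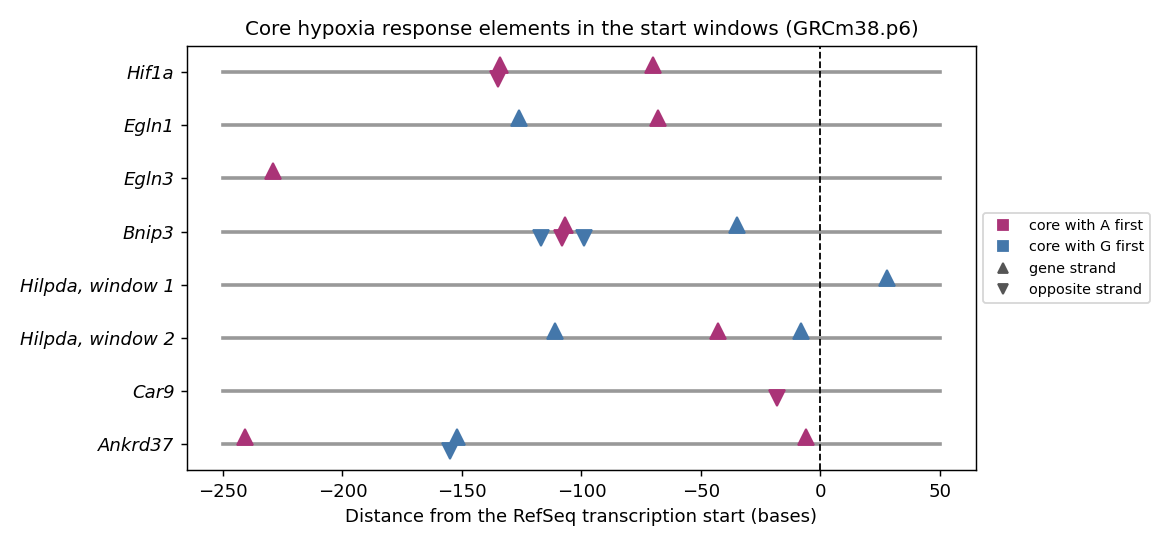
Position of the HIF core letters in the 8 windows around the RefSeq starts, in bases from the start (horizontal axis, dashed line at the start). Upward triangles are matches on the strand of the gene and downward triangles on the opposite strand, and colours give the letter at the front of the core. Each window holds at least 1 match, from 1 in Egln3, Car9 and the first Hilpda window to 5 in Bnip3.

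Neither Hif1a nor Epas1 passed the thresholds in any comparison. Hif1a was at 627, 594, 561 and 657 normalized CPM in RA-PBS, at 556, 582, 585 and 599 in O2-PBS and at 646, 465, 681 and 645 in O2-IC100, where 465 was animal 10. The RA-PBS and O2-PBS ranges overlapped, and the log2 fold change between them was -0.07 (standard error 0.15, adjusted p = 1). Without animal 10 the 3 O2-IC100 retinas all lay above the 4 O2-PBS retinas, where the log2 fold change was 0.19 (standard error 0.09, adjusted p = 0.243), below the fold threshold. Epas1, the alpha subunit known for its role in endothelium and in control of erythropoietin, was at 162, 205, 184 and 149 in RA-PBS, at 215, 191, 173 and 190 in O2-PBS and at 156, 253, 175 and 152 in O2-IC100, where 253 was animal 10. Its groups overlapped in each comparison, with a log2 fold change of 0.14 (standard error 0.18) for O2-PBS against RA-PBS with 12 animals. For O2-IC100 against O2-PBS it was -0.07 (standard error 0.18, adjusted p = 0.855) with all animals and -0.24 (standard error 0.11, adjusted p = 0.257) without animal 10. Per kilobase of transcript, Hif1a was the most abundant of the 10 genes in RA-PBS at 129 CPM per kb, and Epas1 was at 31.7 CPM per kb. The ratio of Epas1 to Hif1a levels, chosen after the values were seen, was 0.226 to 0.344 in RA-PBS, 0.295 to 0.387 in O2-PBS, 0.235 to 0.257 in animals 9, 11 and 12 and 0.544 in animal 10. Animal 10 lay above all O2-PBS retinas and the other 3 O2-IC100 retinas below them, so the ratio showed no common direction under IC100.

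The 2 prolyl hydroxylases among the genes differed in how far they moved. Egln3 (ENSMUSG00000035105) was at 4.15, 3.53, 5.44 and 4.27 normalized CPM in RA-PBS and at 20.6, 12.1, 17 and 14.6 in O2-PBS. The groups did not overlap, which held in this direction for 7.81% of all genes. The log2 fold change was 1.89 (standard error 0.32, adjusted p = 0.0321) with all 12 animals and 1.89 (standard error 0.18, adjusted p = 7.57e-05) without animal 10. With animal 10 kept, leaving out RA-PBS animal 1, 2 or 4 or O2-PBS animal 5 took the adjusted p to 0.114, 0.156, 0.106 and 0.125, at log2 fold changes of 1.75 to 1.88. Egln1, the main oxygen sensor of most cells, was at 99.5, 72.2, 80.5 and 79.7 in RA-PBS and at 119, 96.4, 102 and 107 in O2-PBS. Only RA-PBS animal 1 reached into the O2-PBS range. Its log2 fold change was 0.35 (standard error 0.23, adjusted p = 0.989) with all animals and 0.35 (standard error 0.10, adjusted p = 0.0497) without animal 10, which is under the fold threshold. The ratio of Egln3 to Egln1 was 0.0417 to 0.0675 in RA-PBS, 0.125 to 0.174 in O2-PBS and 0.0777 to 0.103 in O2-IC100 with animal 10 included, as values chosen after they were seen.

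Ndufa4l2 had the largest change of the 10 genes. Ndufa4l2 (ENSMUSG00000040280) was at 3.2, 2.61, 8.88 and 4 normalized CPM in RA-PBS and at 58.1, 48.6, 59 and 60.5 in O2-PBS. The O2-PBS retinas were close together, and RA-PBS animal 3, the RA-PBS retina with the most crystallin counts, was the highest of its group. The log2 fold change was 3.60 (standard error 0.42, adjusted p = 0.00495) with all animals and 3.60 (standard error 0.29, adjusted p = 5.5e-05) without animal 10. Without animals 3 and 10 it was 4.11 (standard error 0.16, adjusted p = 2.53e-08). That alternative was chosen after seeing the data and leaves out the highest RA-PBS value, so it adds no support. Per kilobase, Ndufa4l2 went from 5 CPM per kb in RA-PBS, below 6 of the other genes, to 60.6 CPM per kb in O2-PBS, where only Hif1a (123) and Bnip3 (80) were higher. Ndufa4l2 is known as a gene of pericytes in brain vessels. The summed level of 8 pericyte and mural cell markers was 159 to 190 normalized CPM in RA-PBS and 338 to 475 in O2-PBS, 2.22 times as high by group means, with 6 of the 8 past the thresholds without animal 10 and none at 0. The sum of 12 endothelial markers was 250 to 351 in RA-PBS and 489 to 562 in O2-PBS, 1.66 times as high, with 10 of the 12 past the thresholds and none at 0. Rod markers were at 39400 to 46200 and 39900 to 47000. The 4 astrocyte markers were at 33.3 to 344 and 121 to 228 (1.38 times), overlapping, with 0 past the thresholds in either fit. Other cell type markers differed as well, with 8 Muller glia markers at 2960 to 4450 in RA-PBS and 2400 to 2740 in O2-PBS (0.736 of the RA-PBS mean, 2 of 8 fell without animal 10), 8 microglia markers at 46.6 to 89.6 and 83.9 to 108 (1.42 times, 3 of 8 rose) and 7 pigment epithelium markers at 95 to 272 and 39.8 to 117 (0.408 of the mean, 4 of 7 fell). None of these markers was at 0 in a group. The marker counts are of the fit without animal 10, in which 4.09% of all genes rose and 2.18% fell. With all 12 animals, where 0.782% of all genes rose and 0.0243% fell, 2 of the 12 endothelial markers rose. In that fit 0 of the pericyte, Muller glia, microglia and pigment epithelium markers passed. The part of these cell types in the changes of Ndufa4l2 and Egln3 was not tested.

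The mitophagy gene Bnip3 and the ankyrin repeat gene Ankrd37, both direct HIF targets in many cells, did not pass in this comparison. Bnip3 was at 129, 83, 98.7 and 129 in RA-PBS and at 159, 122, 138 and 144 in O2-PBS, with overlapping groups, and its log2 fold change was 0.35 with a standard error of 0.16 (adjusted p = 0.708). Without animal 10 its adjusted p was 0.132. Ankrd37 was at 28.4, 20.3, 19.9 and 34.4 in RA-PBS and at 21.5, 22.5, 27.4 and 26.5 in O2-PBS. All O2-PBS values lay inside the RA-PBS range, and the log2 fold change was -0.07 (standard error 0.46).

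Both genes of lipid handling, Angptl4 (a secreted inhibitor of lipoprotein lipase) and Hilpda (a lipid droplet protein that inhibits the lipase ATGL), also overlapped between RA-PBS and O2-PBS. Angptl4 was at 2.36, 1.69, 1.78 and 3.48 in RA-PBS and at 2.47, 2.76, 2.94 and 4.32 in O2-PBS, and Hilpda was at 17.6, 7.78, 9.38 and 17.7 in RA-PBS and at 11.6, 13.3, 12.3 and 13.8 in O2-PBS. Their log2 fold changes were 0.43 (standard error 0.45) and -0.04 (standard error 0.37). The RA-PBS values of Hilpda fell into a high pair, animals 1 and 4, and a low pair, animals 2 and 3, and the O2-PBS values lay between these pairs.

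Car9, a carbonic anhydrase with a role in the pH control of hypoxic cells, was near the limit of detection. It was at 0, 0.297, 1.9 and 0.211 normalized CPM in RA-PBS and at 1.17, 0.687, 1.02 and 0.898 in O2-PBS, where 3 counts correspond to 0.145 to 0.181 normalized CPM. Animal 3 was above all O2-PBS retinas and the other RA-PBS retinas were below them. The log2 fold change was 0.64 (standard error 0.89, adjusted p = 1), and it was 2.39 (adjusted p = 0.0338) without animals 3 and 10, an alternative chosen after seeing the data. The same RA-PBS retina was the highest of its group for Ndufa4l2, Egln3 and Car9.

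**Figure D3:**
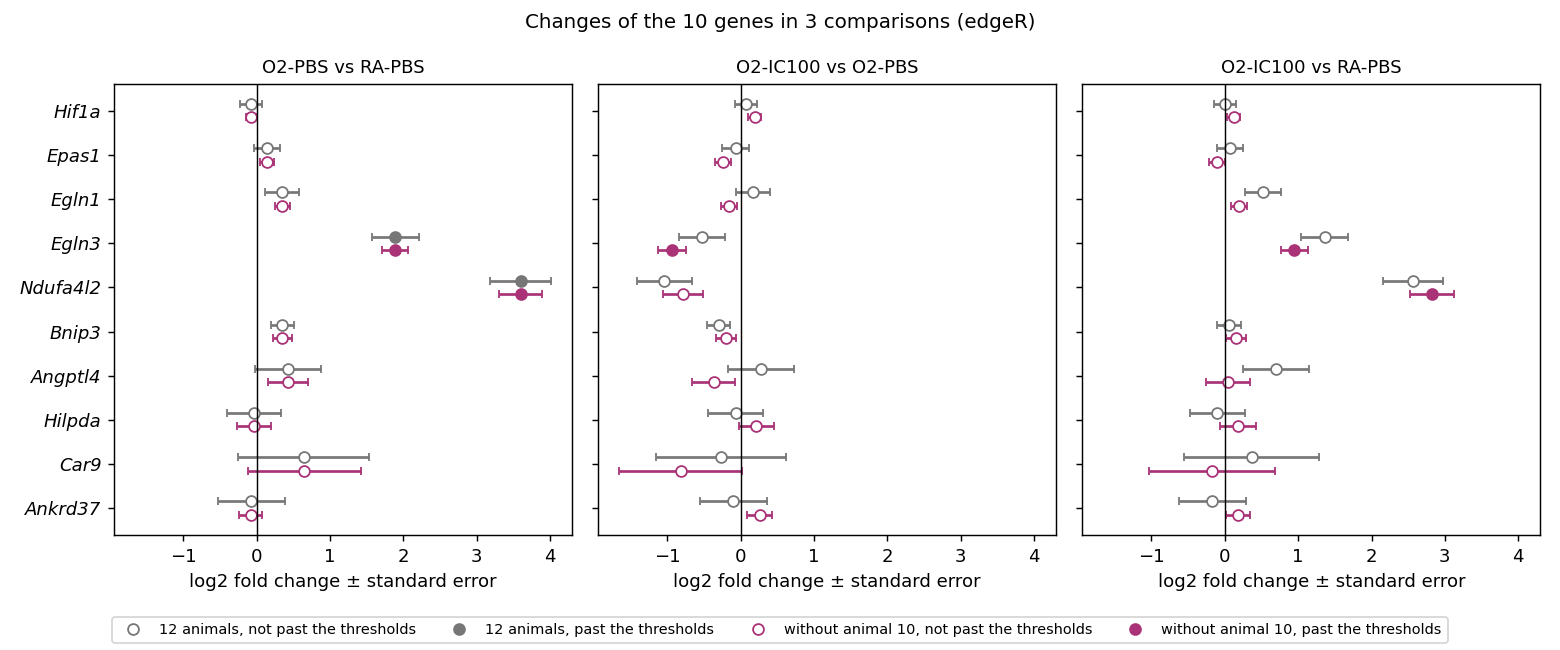
Log2 fold change ± standard error (horizontal axis, edgeR) of the 10 genes in the 3 comparisons. Grey is the fit of all 12 animals and purple the fit without animal 10, and filled symbols passed the thresholds. Ndufa4l2 and Egln3 pass in both fits for O2-PBS against RA-PBS, and in the other comparisons symbols are filled in the fit without animal 10 alone.

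Under IC100, Ndufa4l2 and Egln3 were lower than in O2-PBS retinas in animals 9, 11 and 12, at 0.572 and 0.515 of the O2-PBS means. With all 12 animals no member passed the thresholds between O2-IC100 and O2-PBS, in a comparison where 0% of all genes passed, while 2784 genes and 1 member had an unadjusted p under 0.05 (edgeR). DESeq2 with all 12 animals also called no member. Without animal 10 Egln3 fell, alone among the 10 genes, where 0.731% of all genes fell. It was at 7.35, 8.88 and 8.63 normalized CPM in animals 9, 11 and 12, below each of the 4 O2-PBS retinas, and at 20.1 in animal 10. Its log2 fold change was -0.94 (standard error 0.19, adjusted p = 0.0528) without animal 10 and -0.53 (standard error 0.31, adjusted p = 0.37) with it.

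Ndufa4l2 was at 28.1, 36.1 and 32.9 in animals 9, 11 and 12 and at 12.4 in animal 10, and each of these 4 values lay below the O2-PBS retinas. Not overlapping in this direction was common, at 10.7% of all genes with 12 animals and 17.3% without animal 10. The log2 fold change was -1.04 (standard error 0.38, adjusted p = 0.287) with all animals and -0.79 (standard error 0.27, adjusted p = 0.187) without animal 10, so Ndufa4l2 did not pass in either fit. DESeq2 without animal 10 gave -0.81 (adjusted p = 0.0667), which did pass. Hif1a and Ankrd37 were the 2 genes whose O2-IC100 retinas without animal 10 all lay above those of O2-PBS, as did 18% of all genes. Ankrd37 was at 27.4, 28.3 and 31.3 in animals 9, 11 and 12, and at 3.79 in animal 10. The remaining genes overlapped, with Bnip3 at 118 to 126, Egln1 at 88.4 to 98, Hilpda at 13.4 to 15.7, Angptl4 at 2.02 to 2.75 and Car9 at 0.337 to 0.688 in animals 9, 11 and 12.

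Levels of Y-linked genes also differed between the groups. Their summed level was 283 to 324 normalized CPM in animals 9, 11 and 12 and 230 in O2-PBS animal 8, but 7.93 to 9.82 in O2-PBS animals 5, 6 and 7. In RA-PBS it was 232, 273 and 223 in animals 1, 2 and 3 and 5.61 in animal 4, so O2-PBS and RA-PBS differed too. This level was used as a covariate without animal 10 (edgeR). For O2-IC100 against O2-PBS the log2 fold change of Egln3 was then -0.86 (standard error 0.25, adjusted p = 0.128) and no member passed. For O2-PBS against RA-PBS it was 1.84 (standard error 0.21, adjusted p = 0.00052), and that of Ndufa4l2 was 3.68 (standard error 0.32, adjusted p = 0.000258). Animal 8, the O2-PBS retina with the high Y-linked level, had Egln3 at 14.6 and Ndufa4l2 at 60.5, above animals 9, 11 and 12. The lens-rich O2-IC100 animal 10 had a low Y-linked level, at 4.06. Its Egln3, at 20.1, lay inside the O2-PBS range, and its Ndufa4l2, at 12.4, lay below it. Endothelial markers in animals 9, 11 and 12 summed to 356 to 402 and pericyte markers to 298 to 360, against 489 to 562 and 338 to 475 in O2-PBS. Without animal 10, 3 of 12 and 2 of 8 of them fell past the thresholds, beside 0.731% of all genes. With all 12 animals 0 of them passed. Muller glia markers were at 2860 to 3100 against 2400 to 2740 in O2-PBS. Of these, 1 of 8 rose past the thresholds without animal 10, beside 0.216% of all genes, and 0 with all 12 animals. Microglia markers were at 100 to 125 against 83.9 to 108, pigment epithelium markers at 116 to 135 against 39.8 to 117 and astrocyte markers at 82.4 to 130 against 121 to 228, with 0 past the thresholds. Rod markers were at 40900 to 45200 against 39900 to 47000. The part of these cell types in the change of Egln3 was not tested.

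In IC100-treated retinas both genes stayed above room air. Without animal 10, Ndufa4l2 was 6.93 times and Egln3 1.91 times the RA-PBS mean, and these were the members that passed between O2-IC100 and RA-PBS, where 0.947% of all genes rose. The log2 fold changes were 2.82 (standard error 0.30, adjusted p = 0.00307) for Ndufa4l2 and 0.95 (standard error 0.19, adjusted p = 0.0441) for Egln3. With all 12 animals neither passed, at 2.56 (standard error 0.41, adjusted p = 0.175) and 1.36 (standard error 0.32, adjusted p = 0.316), in a fit where 0% of all genes passed and 2183 genes and 3 members had an unadjusted p under 0.05. DESeq2 with all 12 animals called both, at adjusted p-values of 5.32e-07 and 0.0109. All 4 O2-IC100 retinas, animal 10 included, lay above the RA-PBS retinas for both genes. This held for 2.56% of all genes. The 3 comparisons share their groups, so they are not independent of each other.

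A list of 58 other genes of the HIF pathway gave the setting for these values. Among the other HIF subunits (Hif3a, Arnt and Arnt2) and 12 genes of oxygen sensing and HIF turnover none passed in any comparison or fit. For O2-PBS against RA-PBS without animal 10, the log2 fold changes were -0.20 for Hif3a, 0.13 for Arnt, -0.20 for Arnt2, -0.21 for the third prolyl hydroxylase Egln2, -0.04 for the asparaginyl hydroxylase Hif1an and -0.04 for Vhl. Over the 12 oxygen sensing and turnover genes they ran from -0.30 for Eloc, a partner of Vhl, to 0.27 for the ubiquitin ligase Siah2. In the same comparison 3 of the 57 genes tested with 12 animals rose and none fell. Without animal 10, 9 of 58 rose and 1 fell, beside 4.09% and 2.18% of all genes. The 9 include Epo, which entered that test only through the O2-PBS retinas. The 3 were Vegfa (log2 fold change 1.19, adjusted p = 0.0557), the vessel growth factor, Adm (3.51, adjusted p = 0.0065), the peptide adrenomedullin, and Loxl2 (1.42, adjusted p = 0.0623), a collagen crosslinking enzyme.

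The secreted and vascular targets had the largest median of the 7 groups in the list. The lists were chosen with earlier results of these data known, so the order of the groups is a description only. Their median log2 fold change was 1.44 over 7 genes without animal 10, and 6 of them rose. The medians were 0.23 over 10 genes of glucose and pyruvate, 0.15 over 7 mitochondrial genes, -0.01 over 7 genes of lipid, pH and storage and 0.21 over 12 genes of stress, matrix and chromatin, with 1, 1, 1 and 0 genes that rose. Adm was at 0.449, 0.729, 1.4 and 1.27 normalized CPM in RA-PBS, at 14, 7.35, 12.8 and 9.84 in O2-PBS and at 4.61, 4.78 and 4.41 in animals 9, 11 and 12, an order of groups like that of Ndufa4l2. The other secreted genes that rose without animal 10 were Igfbp3 (1.73) and Stc2 (1.44). Epo, the HIF-2α target erythropoietin, is counted among the 6 as well (adjusted p = 0.0171). It went from 0 to 0.111 normalized CPM in RA-PBS, under 3 counts in each retina, to 0.157 to 1.26 in O2-PBS. Epo was filtered out with 12 animals, and without animal 10 it passed the filter on low counts only through O2-PBS, where it is high. Its call therefore adds no support. The remaining genes that rose were the lactate exporter Slc16a3 (0.71), the glycogen synthase Gys1 (0.82) and the mitochondrial gene Fam162a (0.65). Nrn1, the neuritin gene, fell by 0.59 on the log2 scale.

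Between O2-IC100 and O2-PBS none of the listed genes passed with all 12 animals. Without animal 10, 4 of 58 fell and none rose, beside 0.731% and 0.216% of all genes. These were Igfbp3 (-1.32, adjusted p = 0.0381), Adm (-1.23, adjusted p = 0.0825), Loxl2 (-1.03, adjusted p = 0.0746) and Bhlhe40 (-0.63, adjusted p = 0.0659), a transcriptional repressor. Against RA-PBS, Adm (2.28), Stc2 (1.05) and Vegfa (0.77) were higher without animal 10, 3 of 58 beside 0.947% of all genes, and none of the list passed with all 12. Over the list the median log2 fold change without animal 10 was 0.15 for O2-PBS against RA-PBS and -0.04 for O2-IC100 against O2-PBS, beside -0.01 and 0.00 over all genes.

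**Figure D4:**
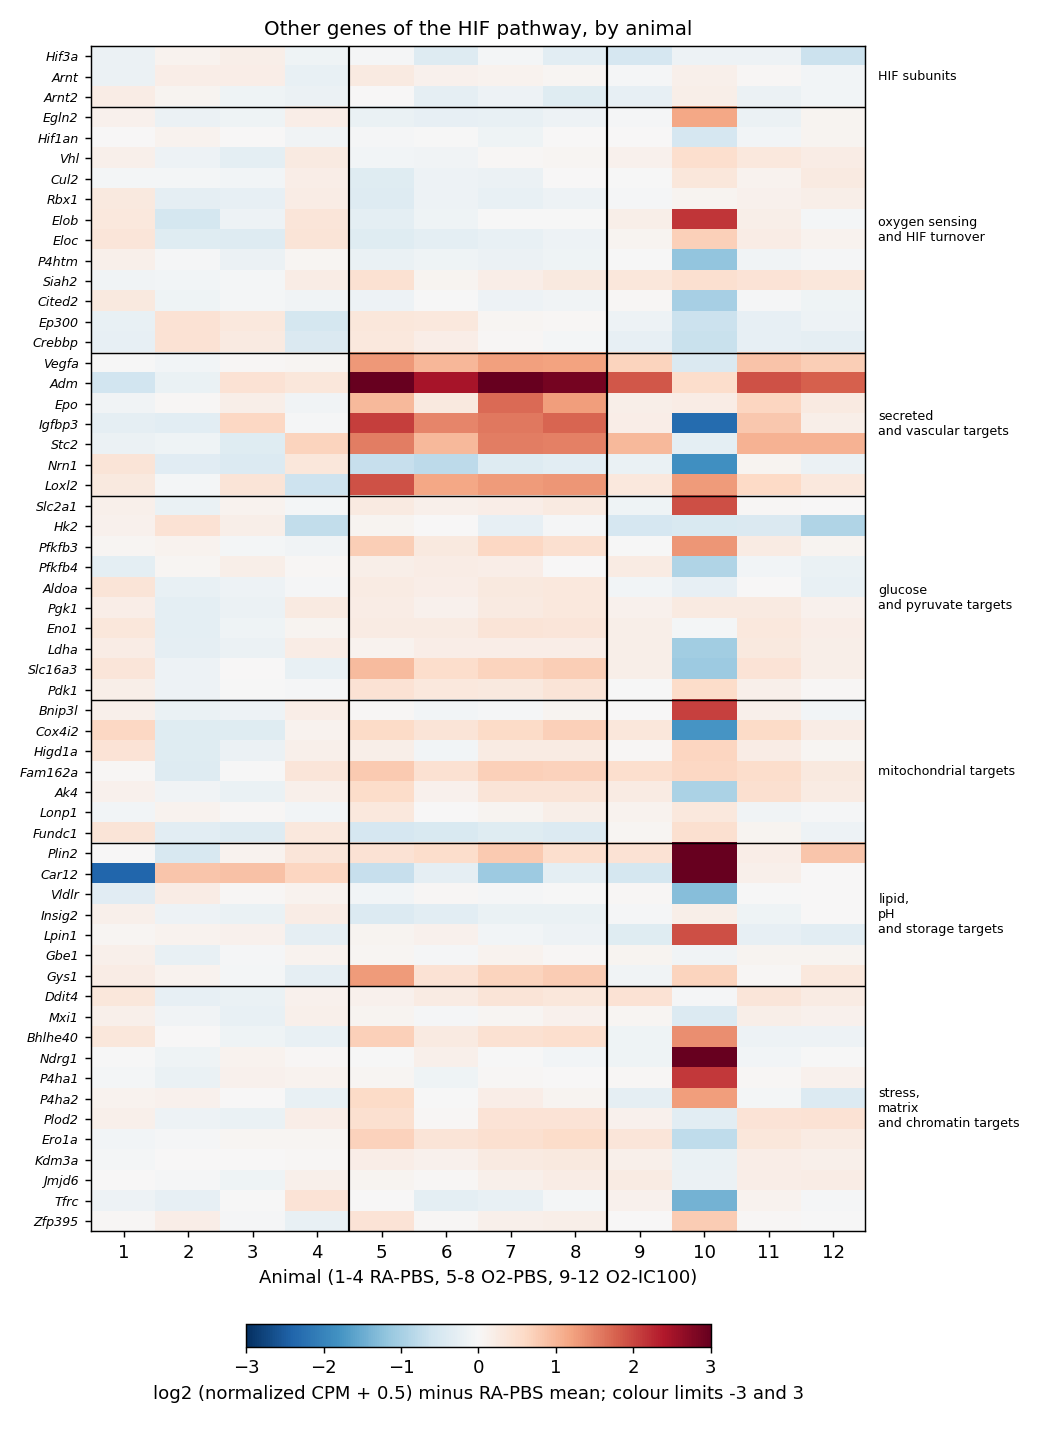
Heat map of the 58 other HIF pathway genes (rows, grouped by role) in the 12 retinas (columns). Colour gives log2 (normalized CPM + 0.5) minus the RA-PBS mean, blue below and red above it, with full colour at a difference of 3. Red in animals 5 to 8 is strongest in the rows of secreted and vascular targets, and animal 10 departs from the other O2-IC100 retinas in many rows.

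The genes whose levels ran most like those of Ndufa4l2 and Egln3 across 11 retinas were looked up among 15148 genes with a mean of at least 1 CPM. For Ndufa4l2 they were the matrix metalloproteinase gene Mmp14 (Pearson r 0.991), the endothelin gene Edn2 (0.986) and the tip cell gene Esm1 (0.985). For Egln3 they were the leukocyte gene Lcp1 (0.982), the growth factor Fgf2 (0.981) and the endothelial gene Pecam1 (0.979). These coefficients describe log2 CPM over 3 groups that differ in level, so genes that differ between the groups rank high.

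Within RA-PBS a split between libraries ran through the whole transcriptome, and many but not all of the 10 genes followed it. Animals 1 and 4 both lay above animals 2 and 3 for 30.7% of 16688 genes and both below them for 26.5%. Among the 10 genes, Hilpda, Ankrd37, Angptl4, Hif1a and Bnip3 were each higher in animals 1 and 4 than in animals 2 and 3. Epas1 and the low-count gene Car9 were higher in animals 2 and 3. Egln3 and Ndufa4l2 were instead highest in animal 3 and lowest in animal 2, and Egln1 did not follow the split either. Given the shares over all genes, the split was not particular to these 10 genes. The SD of log2 CPM of Hilpda was 0.618 in RA-PBS against 0.114 in O2-PBS and 0.113 in animals 9, 11 and 12, and that of Ankrd37 was 0.392, 0.174 and 0.1. The crystallin share was 0.00315% in animal 1, 1.25% in animal 2, 4.5% in animal 3 and 1.44% in animal 4. Its part in the split was not tested.

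**Figure D5:**
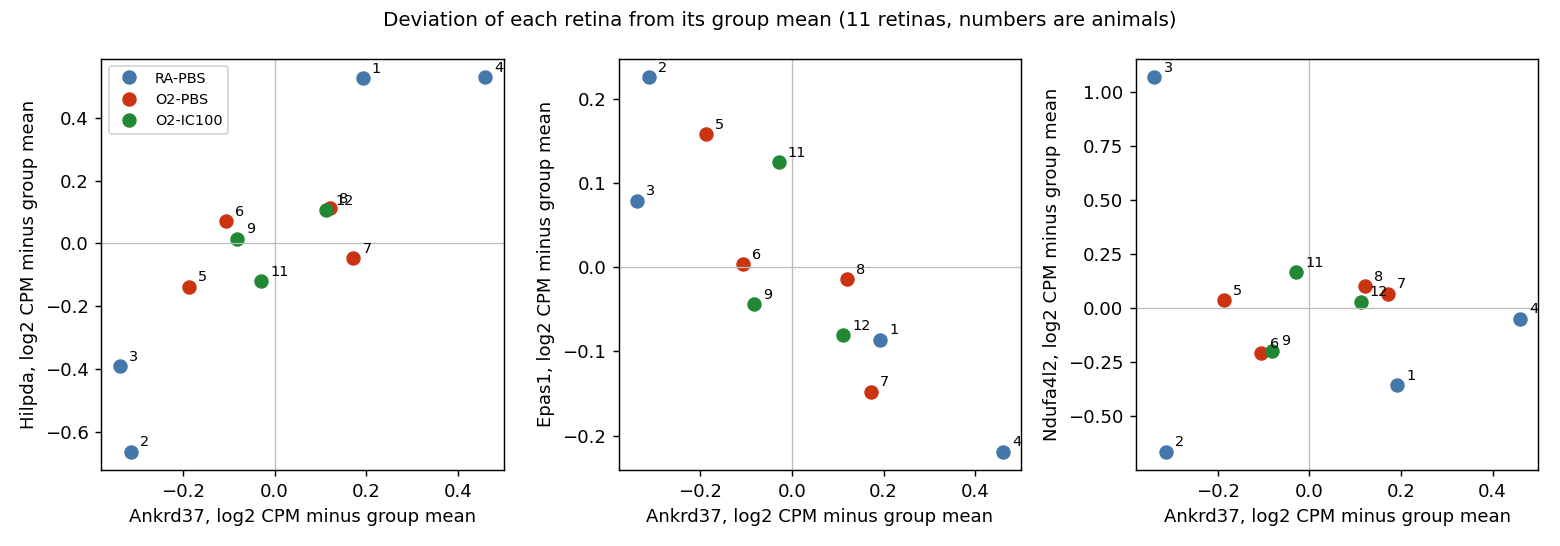
Deviation of each retina from its group mean in log2 CPM, with Ankrd37 on the horizontal axes and Hilpda, Epas1 or Ndufa4l2 on the vertical axes. Points are the 11 retinas without animal 10, coloured by group and numbered by animal. Animals 1 and 4 lie at the upper right and animals 2 and 3 at the lower left for Hilpda, the order is turned around for Epas1, and Ndufa4l2 shows neither.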

How the data were processed

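RNA of 12 P18 mouse retinas was extracted, selected for poly(A) and sequenced as 150 bp paired reads. The authors estimated transcript counts with Kallisto on GRCm39_104 and summed them per gene with tximport, and what was deposited is a gene table of expected counts with no scaling for depth (42% are not whole numbers). DESeq2 is also named in the submitters' processing notes, without a version. Groups were taken from the sample labels, and symbols were given for 35374 of 36131 genes.

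After rounding, the counts were fitted with edgeR 4.0.16 (R 4.3.3). TMM normalization, filterByExpr and a robust quasi-likelihood fit of the 3 groups without a covariate were used, and each comparison was a two-sided F test whose p-values were adjusted over every tested gene (Benjamini-Hochberg). Log2 CPM had a prior count of 2. Total counts were 14907143 to 24438082, and TMM-scaled library sizes were 7921117 to 20832212, at which 3 counts correspond to 0.144 to 0.379 normalized CPM. This limit covers counting error only. The labels name single animals, and p-values measure the spread between them. Levels per kilobase used the longest protein-coding transcript of each gene in GENCODE M21, and windows around starts were RefSeq's. The build of that reference is GRCm38, so positions are of GRCm38.p6 and not of the authors' build. Where 2 rows carry a symbol (Aldoa), the higher was used, and Ero1a is listed under an older symbol.

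The members and the gene and marker lists were chosen with earlier results of these data known, and 1 gene of the pathway list is not reported here. Genes named are all members, the HIF subunits and oxygen sensing genes, list genes past the thresholds in either fit, and the 3 genes most like each member that passed in both fits. Alternatives were DESeq2 1.42.0, limma 3.58.1 voom, RLE and upper quartile normalization, other filters on low counts, fits of 2 groups, empirical Bayes that is not robust, crystallin or Y-linked covariates, removal of crystallins and animals left out. On simulated data for O2-PBS against RA-PBS edgeR recovered 98% of 200 genes changed 2-fold among 15161 genes, with 7 false calls among 203. These values hold only for the spread between animals that was simulated, and they do not give the power of the reported fits. In those fits the standard error of Egln3 for this comparison was 0.32 with all animals and 0.18 without animal 10.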

Additional observations from a re-analysis of the deposited data

Results flagged for a closer look

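In each group of 4 retinas, the highest and lowest value of the 10 genes were set against the range of the group (Dixon's criterion, 30 groups), and 6 stood far from the rest. Chance flags about 1 in 20 groups. Of the 6, 5 were in O2-IC100 animal 10, the lens-rich retina. There Hif1a was at 465 normalized CPM against 645 to 681 in animals 9, 11 and 12, and Ankrd37 at 3.79 against 27.4 to 31.3. Egln1 was at 196 against 88.4 to 98, Egln3 at 20.1 against 7.35 to 8.88, and Angptl4 at 8.33 against 2.02 to 2.75. The sixth was Car9 in RA-PBS animal 3, at 1.9 against 0 to 0.297 in the other RA-PBS retinas.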

How the results depend on the processing

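Ndufa4l2 and Egln3 passed for O2-PBS against RA-PBS under all alternatives that did not leave out a single animal, and Car9 joined them without animals 3 and 10. Leaving out 1 animal gave 1 to 2 members, with Egln3 lost without animal 1, 2, 4 or 5. For O2-IC100 against O2-PBS the number of members went from 0 to 2 with DESeq2 without animal 10, 1 without animals 1 and 10 and 2 without animals 3 and 10 (0 to 1 with 1 animal left out). Against RA-PBS it went from 0 to 2 with DESeq2, with and without animal 10, with the crystallin or Y-linked covariate and without animals 1 and 10 or 3 and 10 (0 to 2 with 1 animal left out). The list of other HIF genes went from 3 for O2-PBS against RA-PBS to 7 (DESeq2), 10 (DESeq2 without animal 10), 5 (voom), 8 (2 groups), 9 (crystallin covariate), 8 (Y-linked covariate) and 12 (without animals 1 and 10, and without 3 and 10), and ran from 1 to 10 with 1 animal left out. For O2-IC100 against O2-PBS it went from 0 to 2 (DESeq2) and 5 (DESeq2 without animal 10, and without animals 1 and 10 or 3 and 10), with 0 to 4 for 1 animal left out. Against RA-PBS it went from 0 to 1 (DESeq2), 4 (DESeq2 without animal 10), 9 (crystallin covariate), 4 (Y-linked covariate) and 3 (without animals 1 and 10, and without 3 and 10), with 0 to 3 for 1 animal left out. The causes were not tested.

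Of 777 alternative values of the 10 genes, 680 kept their direction and side of the thresholds, 22 gained and 4 lost the thresholds, and 71 changed sign, 0 of them of a value that passed. The log2 fold changes that changed sign for O2-PBS against RA-PBS were those of Hilpda, at 0.07 (voom), 0.02 (upper quartile) and 0.14 (without animals 1 and 10). For O2-IC100 against O2-PBS, under DESeq2 without animal 10, the crystallin covariate, the Y-linked covariate, without animals 1 and 10 and without animals 3 and 10 in turn, they were -0.18, -0.03, -0.19, -0.16 and -0.17 for Egln1, -0.39, -0.23, -0.29, -0.38 and -0.38 for Angptl4 (and -0.09 with voom), 0.19, 0.15, 0.42, 0.21 and 0.20 for Hilpda, and 0.24, 0.12, 0.45, 0.26 and 0.25 for Ankrd37. For O2-IC100 against RA-PBS, under the same alternatives without the crystallin covariate, they were 0.10, 0.14, 0.14 and 0.07 for Hif1a (and 0.01 with DESeq2 and with RLE, and 0.00 with 2 groups), -0.13, -0.16, -0.14 and -0.09 for Epas1, 0.16, 0.29, 0.35 and 0.04 for Hilpda and 0.17, 0.29, 0.24 and 0.07 for Ankrd37. Car9 was at -0.21, -0.34 and -0.57 under the first 3 of these, Bnip3 at -0.03 with the crystallin covariate and Angptl4 at -0.06 without animals 3 and 10. With 1 animal left out, the ranges that crossed 0 were, for O2-PBS against RA-PBS, -0.19 to 0.10 (Ankrd37) and -0.22 to 0.14 (Hilpda). For O2-IC100 against O2-PBS they were -0.37 to 0.49 (Angptl4), -0.29 to 0.26 (Ankrd37), -0.82 to 0.01 (Car9), -0.16 to 0.29 (Egln1), -0.24 to 0.02 (Epas1) and -0.22 to 0.21 (Hilpda). Against RA-PBS they were -0.36 to 0.18 (Ankrd37), -0.06 to 0.15 (Bnip3), -0.17 to 2.15 (Car9), -0.11 to 0.15 (Epas1), -0.06 to 0.12 (Hif1a) and -0.29 to 0.18 (Hilpda).

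No paired analysis was possible because the animal numbers of the 3 groups do not overlap. Calls that involve O2-IC100 rest on 3 animals once the lens-rich retina is set aside, and the covariates leave few residual degrees of freedom. Car9, Angptl4 and Epo had few counts, which limits what this depth can show. Hif1a and Epas1 are measured here as RNA only. Y-linked levels and the IC100 group are largely confounded, and Y-linked levels also differed between most RA-PBS and most O2-PBS retinas.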
